A study of Mus musculus with 10 samples.

Results

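Oxidative stress defense genes were followed in germinal center B cells that lacked the BTB-ZF transcription factor ZBTB38. The set held 40 genes, chosen by name as antioxidant and NRF2 pathway genes, and all 40 were found among the 22380 genes that the transcript names listed. The compared genotypes were measured in RNA-seq libraries of untreated primary cells. Their floxed allele was made in C57Bl6/J zygotes and kept by backcrossing to C57Bl6/N mice, and the number of backcrosses is not given. Vav-Cre mice came from the Jackson Laboratory. ZBTB38 WT mice were Zbtb38fl/fl without Cre (2 libraries), ZBTB38 HET mice were Zbtb38fl/+ x Vav-Cre (2 libraries), and ZBTB38 KO mice were Zbtb38fl/fl x Vav-Cre (6 libraries). Cells were NP-binding GL7+ IgD- B cells sorted 2 weeks after immunization with NP-OVA in alhydrogel. Every group carried at least 1 floxed Zbtb38 allele, derived from a single founder, and Vav-Cre is active across the blood lineages and not in B cells alone. WT and HET differ in Cre as well as in Zbtb38, and the effects of the Cre transgene and of the deletion cannot be told apart between them. The age of the mice is not given in the sources used here.

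Cells meet oxidants through a few linked systems. NRF2, the product of Nfe2l2, is a transcription factor that KEAP1 holds for degradation. When KEAP1 is modified by electrophiles, NRF2 accumulates and binds antioxidant response elements in the genes for glutathione synthesis, quinone reduction, heme breakdown and NADPH supply. Glutathione peroxidases, peroxiredoxins and catalase then remove peroxides, and the thioredoxin and glutaredoxin systems return oxidized thiols to the reduced state. Loss of ZBTB38 has been tied to oxidative stress sensitivity in other cells, so the question here was whether any of these transcripts differed between genotypes in germinal center B cells.

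The core letters of the antioxidant response element, TGACNNNGC, were searched on both strands of RefSeq promoters (GRCm38.p6, from 250 bases before to 50 bases after each start site). An entry was matched for 36 of the 40 genes, and 9 of them (25%) held the letters, beside 14.0% of all 27025 genes with an entry. The 9 were Nfe2l2, Srxn1, Gclm, Prdx1, Sesn2, Me1, Txnrd1, Sod1 and G6pdx. Windows of 29 bases are shown for 5 of them because their genes stand for the sensor, glutathione synthesis, peroxide removal, superoxide removal and NADPH supply. Capitals mark the matched letters, and each window reads 5′ to 3′ on the strand that holds them.
Nfe2l2, chr2:75704885-75704913, minus strand: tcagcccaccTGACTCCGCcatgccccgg
Gclm, chr3:122245413-122245441, minus strand: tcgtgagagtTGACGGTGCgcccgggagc
Prdx1, chr4:116685456-116685484, minus strand: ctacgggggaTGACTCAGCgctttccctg
Sod1, chr16:90220696-90220724, minus strand: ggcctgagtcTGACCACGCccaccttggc
Me1, chr9:86695902-86695930, minus strand: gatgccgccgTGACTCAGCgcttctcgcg

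The matched letters of Prdx1 and Me1 were the same, TGACTCAGC, which also holds the AP-1 letters TGACTCA. A match describes these windows and does not show that NRF2 binds there. The values of the 9 genes in ZBTB38 KO cells are given with the comparisons.

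Libraries held 26612431 to 41059082 estimated counts each. Zbtb38 itself was at 162 and 152 CPM (read counts scaled to library size with TMM factors) in WT, at 117 and 106 CPM in HET and at 18.6 to 50.3 CPM in the 6 KO libraries, and its gene sum also takes in exons outside the floxed exon 3. The log2 fold change of Zbtb38 was -2.31 (SE 0.27, edgeR, adjusted p = 0.0734) in KO against WT and -2.08 (SE 0.23, adjusted p = 0.0104) in KO against WT plus HET, and it was the 1 gene called in each. Zbtb38 was not called in KO against HET (-1.82, adjusted p = 0.128) or in HET against WT (-0.49, adjusted p = 0.873), so the tests that found no member there did not call the deleted gene either. All 12 germinal center B cell markers were above 1 CPM in every library. So were 10 of 10 naive B cell, 7 of 8 plasma cell, 10 of 14 myeloid and 8 of 14 T cell markers, and this measure does not set the cell types apart. T cell markers summed to 322 and 325 CPM in WT, 199 and 204 CPM in HET and 196 to 295 CPM in KO. For plasma cell markers the sums were 2332 and 2080 CPM in WT, 2033 and 1908 CPM in HET and 1908 to 2688 CPM in KO. Summed myeloid markers were 507 and 647 CPM in WT, 101 and 113 CPM in HET and 93.5 to 846 CPM in KO. Summed naive B cell markers were highest in KO replicate 6, at 2152 CPM against 1036 to 1641 CPM in the other 9 libraries. For germinal center B cell markers the sum was highest in KO replicate 1, at 14080 CPM against 9666 to 11275 CPM in the other 9 libraries. The sum of the Y-linked transcripts Ddx3y, Eif2s3y, Kdm5d and Uty was over 100 CPM in both WT libraries and in 3 of 6 KO libraries, and under 10 CPM in both HET libraries and the other KO libraries, so that this difference between libraries and the difference between WT and HET cannot be told apart. Of the 40 genes, 2 are X-linked, G6pdx and Prdx4.

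Levels were compared between genes as TPM, which takes transcript length into account. The 40 genes together made up 1.03% to 1.26% of all TPM, and ferritin alone made up 40.5% to 47.2% of that. Ferritin stores iron in a form that cannot feed radical chemistry. Its heavy chain, Fth1, had the highest level of the set, 3012 TPM on average over the 10 libraries, followed by its light chain, Ftl1, at 1994 TPM. Prdx1, a cytosolic peroxiredoxin, was at 1356 TPM. Gpx1, a cytosolic glutathione peroxidase, Gstp1, a glutathione transferase, and Txn1, cytosolic thioredoxin, followed at 882, 769 and 636 TPM. These 6 genes held 74.3% to 79.0% of the set's TPM in each library. Gstp1 has a near-identical neighbor, Gstp2, which was at 2.41 to 11.7 TPM, and reads that fit both are split by the quantification. Ftl1 has 2 named pseudogenes, so its counts carry the same uncertainty.

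At the other end lay some classical NRF2 targets, but not all. Gclc, Hmox1 and Gclm, of glutathione synthesis and heme breakdown, averaged 41.2, 35.6 and 26.1 TPM. Nqo1, the quinone reductase, averaged 0.236 TPM, Srxn1, which repairs overoxidized peroxiredoxins, 0.211 TPM, Slc7a11, the cystine importer, 0.172 TPM, and Me1, the cytosolic malic enzyme, 0.0866 TPM. Nqo1 was detected in 3 of 10 libraries, at 0.657 CPM in WT replicate 2, 0.701 CPM in HET replicate 1 and 1.20 CPM in KO replicate 1. Me1 was also detected in 3 libraries, at 0.832 CPM in HET replicate 2, 0.948 CPM in KO replicate 1 and 0.404 CPM in KO replicate 5. A count of 0 in a library allows up to 3 counts, which is 0.0731 to 0.113 CPM at these depths and covers counting error only. No fold change is given for Nqo1 or Me1. Between these extremes, 14 genes lay at 100 to 1000 TPM, 15 at 10 to 100 TPM and 4 at 1 to 10 TPM.

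**Figure D1:**
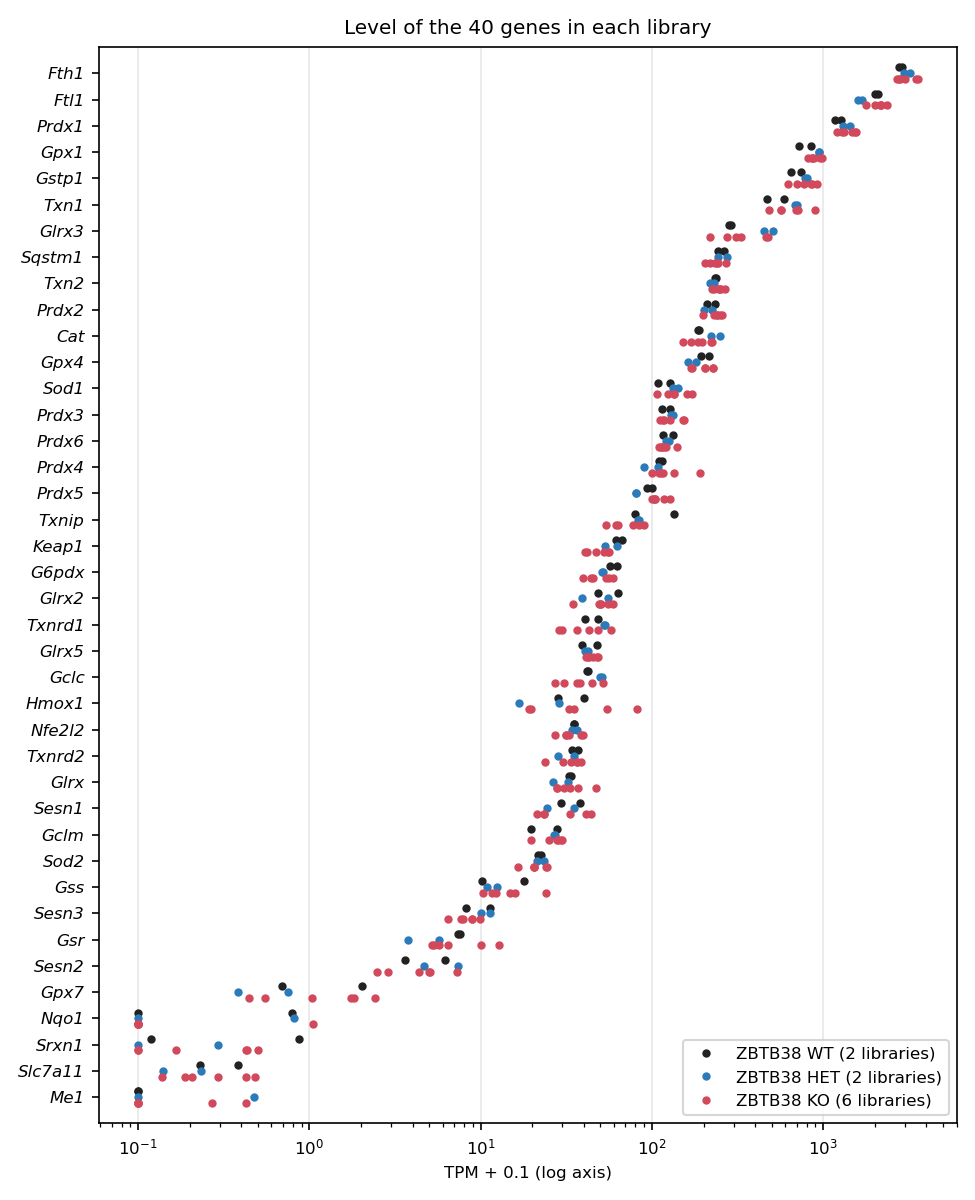
Level of each of the 40 genes in each of the 10 libraries, as TPM plus 0.1 on a log axis, with genes ordered by their mean. Points are single libraries of ZBTB38 WT (2), HET (2) and KO (6) mice. Fth1, Ftl1 and Prdx1 lie above 1000 TPM, while Nqo1, Srxn1, Slc7a11 and Me1 average below 1 TPM, and for most genes the 3 genotypes overlap.

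None of the 40 genes passed the threshold in ZBTB38 KO against WT (edgeR quasi-likelihood test, adjusted p under 0.1), where 0.00704% of the 14203 genes tested were called. DESeq2 also called 0 of them, with 0.0354% of all genes called. At an unadjusted p under 0.05, 1 of the 40 genes passed in edgeR (2.5%), and 2.19% of all genes did. In KO against WT plus HET, 38 of the 40 genes were tested and 0 were called by edgeR or DESeq2, with 0.00749% of 13347 genes called by edgeR and 0.143% of 12550 by DESeq2. At an unadjusted p under 0.05, 2 of the 38 genes passed (5.26%), beside 6.3% of all genes. On the CPM scale, 0 of the 38 genes had all KO libraries above, or all below, the 4 controls, which was so for 0.524% and 0.996% of all genes. Both comparisons use the same 6 KO and 2 WT libraries. A negative call has limited reach with 2 WT libraries. The 95% interval of a single gene reached a median of 0.46 on the log2 scale to either side of its fold change in KO against WT, and 0.33 in KO against WT plus HET. In simulated counts with the same design, 34.7% of 2-fold changes were recovered in the first comparison and 48.8% in the second, over 14354 genes with 200 changed. The 200 mixed 2-fold and 4-fold changes, and many changed genes loosen the cutoff of an adjusted p. In the real data 1 gene was called in each comparison, so these shares can overstate the reach of a negative call here.

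The fold changes leaned upward without reaching a call. In KO against WT, 28 of 40 genes had a log2 fold change above 0 (70%, beside 51.8% of all genes), and the median was 0.18 beside 0.01 for all genes. With Me1, which was at 0 in both WT libraries, set to the lower bound that 3 counts in the WT group give, the median was again 0.18. In KO against WT plus HET, 28 of 38 genes lay above 0 (73.7%, beside 52.8% of all genes), with a median of 0.19 beside 0.02. Without Nqo1, Me1, Srxn1 and Slc7a11, whose fitted folds rest on few counts, 27 of 36 genes (75%) lay above 0 in each comparison, with medians of 0.19 and 0.19. These counts describe the set. When the genes were compared as log2(TPM + 1) in place of counts, the medians were -0.01 and 0.05, while those of all genes moved to -0.11 and -0.08. The median of all genes thus shifted by 0.12 and 0.11 between the scales, and relative to all genes the set lay 0.10 and 0.13 higher on the TPM scale against 0.17 and 0.17 on the count scale.

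**Figure D2:**
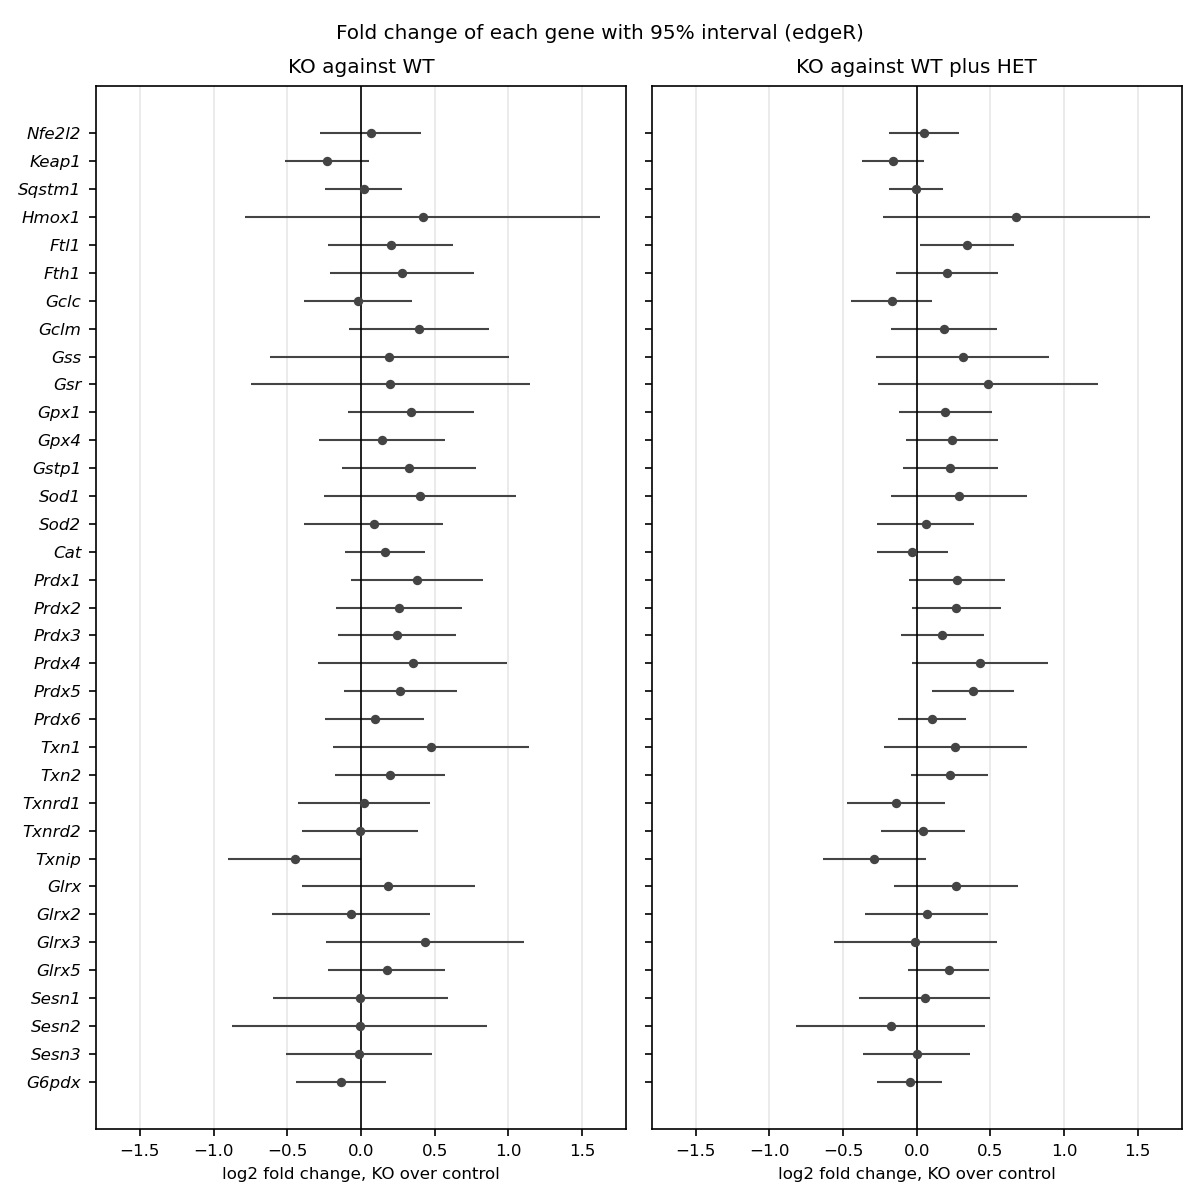
Log2 fold change of ZBTB38 KO over WT (left) and over WT plus HET (right) from edgeR, with bars for the 95% interval, for 35 of the 40 genes grouped by role. Nqo1, Slc7a11, Srxn1, Me1 and Gpx7, which were near or under 1 CPM, are left out. Most points lie to the right of 0 and nearly all intervals cross it, with those of Prdx5 and Ftl1 on the right panel lying above 0.

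Strand matters for some of the members named here. Keap1 and Txnip have an annotated antisense gene, and Sqstm1, Prdx2, Prdx5, Sod1, Gss and G6pdx overlap a coding gene on the other strand, so reads from shared bases cannot be told apart if strand was not used. In the sensor arm, Nfe2l2 differed little between genotypes and Keap1 was lower in most KO libraries, without a call. Nfe2l2 was at 57.4 and 56.4 CPM in WT, at 56.6 and 59.9 CPM in HET and at 52.7 to 69.7 CPM (median 58.8) in KO. Its log2 fold change was 0.07 (SE 0.16) against WT and 0.05 (SE 0.11) against WT plus HET, and both were -0.08 on the TPM scale. Keap1, the NRF2 inhibitor, was at 119 and 108 CPM in WT, at 95.5 and 111 CPM in HET and at 89.4 to 109 CPM in KO. In 5 of 6 KO libraries it was below both WT libraries, as was G6pdx, while Cat was above both in 5 of 6. The share of all genes with such partial counts of KO libraries was not counted, here or for the genes below. The log2 fold change of Keap1 was -0.23 (SE 0.13, edgeR, adjusted p = 0.999) against WT and -0.16 (SE 0.10) against WT plus HET. On the TPM scale these were -0.40 and -0.32. All 6 KO libraries of Keap1, at 40.6 to 56.3 TPM, were below both WT libraries, at 66.9 and 61.9 TPM. Its HET libraries were at 53.0 and 62.2 TPM, so HET replicate 1 lay within the KO range. The share of all genes separated from WT in this way was not counted in TPM, a scale on which the median of all genes was -0.11 against WT. Sqstm1, the p62 autophagy receptor that competes with NRF2 for KEAP1, had the smallest spread of the set over KO libraries, with an SD of 0.07 on the log2 scale. It lay at 292 to 331 CPM in KO and at 294 and 324 CPM in WT.

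Among heme and iron genes, Hmox1 had the widest spread of the set over KO libraries, with an SD of 0.85 on the log2 scale. Its product, heme oxygenase, breaks down heme. It was at 39.2 and 26.8 CPM in WT, at 16.6 and 27.9 CPM in HET, and in KO replicates 1 to 6 at 24.9, 17.9, 59.5, 32.4, 34.2 and 95.6 CPM. KO replicates 3 and 6 were above every control, and KO replicates 1 and 2 were below both WT libraries. The log2 fold change was 0.42 (SE 0.54) against WT and 0.68 (SE 0.42) against WT plus HET, and without KO replicate 6 these were 0.03 and 0.28. Against WT it was 0.72 without WT replicate 1 and 0.17 without WT replicate 2. Macrophages, which engulf dying cells in germinal centers, express Hmox1, and macrophage transcripts moved between the libraries too. Csf1r, the macrophage growth factor receptor, was at 70.2 CPM in KO replicate 6 and at 48.6 CPM in KO replicate 3, but also at 58.9 CPM in KO replicate 4 and at 62.5 CPM in WT replicate 1. It was lowest in KO replicates 1 and 2, at 6.71 and 11.5 CPM, which also had the lowest Hmox1 levels in KO. Lyz2, lysozyme, was at 34.4 CPM in KO replicate 6 and at 522 CPM in KO replicate 4. The macrophage marker C1qb was at 49.1 CPM in KO replicate 6, at 63.0 CPM in KO replicate 4 and at 62.1 CPM in WT replicate 1. Summed myeloid markers were 359 CPM in KO replicate 6, below both WT libraries. The part of these cells in the Hmox1 result was not tested, and in such bulk libraries fewer cells of a type and less RNA per cell cannot be told apart.

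**Figure D3:**
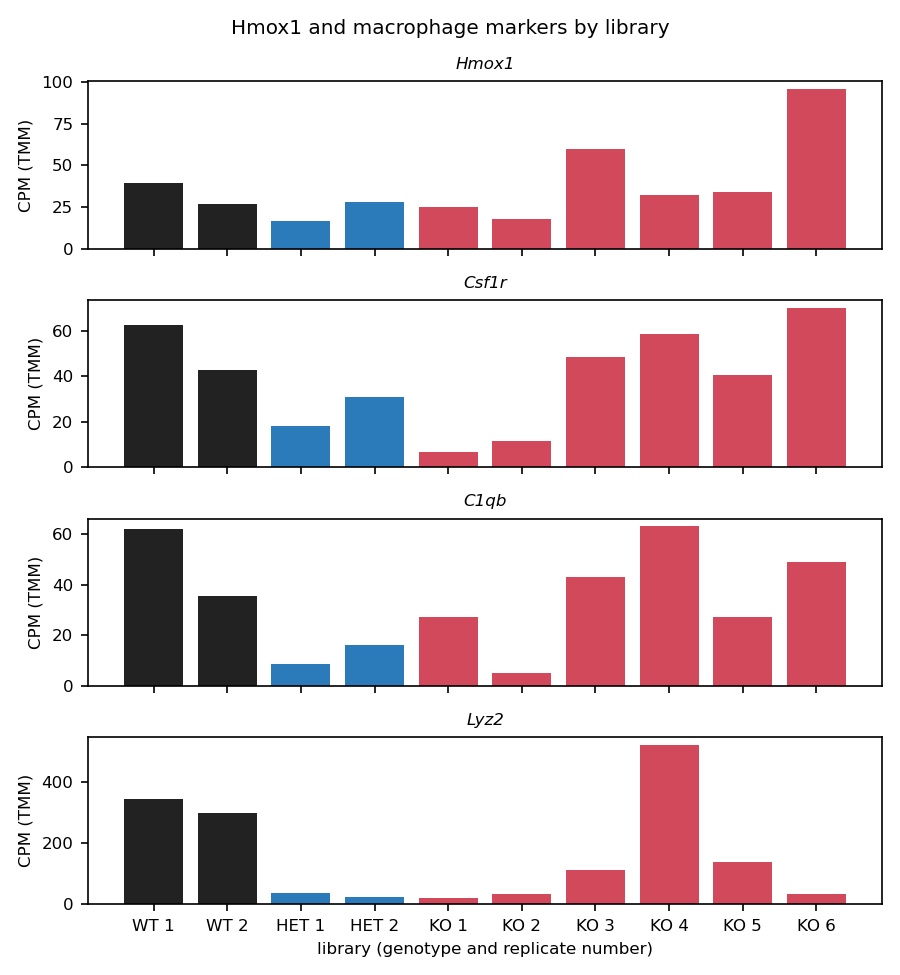
CPM of Hmox1 and of 3 macrophage markers (Csf1r, C1qb and Lyz2) in each library, with black bars for WT, blue for HET and red for KO. Hmox1 is highest in KO replicate 6 (95.6 CPM), where Csf1r is highest as well, while C1qb and Lyz2 peak in KO replicate 4. C1qb is at 63.0 CPM there, at 62.1 CPM in WT replicate 1 and at 49.1 CPM in KO replicate 6.

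Ftl1 (chr7:45457944-45459884, minus strand, GRCm38) was at 1132 and 1042 CPM in WT and at 866 and 905 CPM in HET. The 6 KO libraries were at 1499, 922, 1290, 1106, 1141 and 1535 CPM, above all 4 controls in 4 of 6. Prdx1, Prdx2, Prdx3, Prdx4, Txn2, Glrx and Glrx5 were likewise above all 4 controls in 4 of 6. In KO against WT plus HET the log2 fold change of Ftl1 was 0.34 (SE 0.15, edgeR, unadjusted p = 0.0381, adjusted p = 0.744). Fth1 was at 1351 and 1246 CPM in WT and at 1393 and 1474 CPM in HET, and the KO range of 1201 to 2168 CPM took in all of these.

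Peroxiredoxins, which reduce peroxides with electrons from thioredoxin, held 3 of the 4 smallest p-values of the set in KO against WT plus HET. Prdx5 (chr19:6906697-6910106, minus strand), found in mitochondria, peroxisomes and cytosol, was at 72.6 and 66.9 CPM in WT and at 59.3 and 59.5 CPM in HET. In KO replicates 1 to 6 it was at 94.6, 68.0, 83.9, 77.6, 79.3 and 101 CPM. These were above all 4 controls in 5 of 6 KO libraries, and KO replicate 2 lay between the WT libraries. The log2 fold change was 0.38 (SE 0.13, edgeR, unadjusted p = 0.0109, adjusted p = 0.744) against WT plus HET and 0.27 against WT alone. The overlapping gene of Prdx5 is Trmt112, and use of strand in the counting is not stated. The longest transcript of Prdx5, which held most of its TPM, was at 87.8 to 101 TPM in KO, at 92.4 and 90.0 TPM in WT and at 74.7 and 78.4 TPM in HET, so on that transcript KO and WT overlapped. Summed over its transcripts, Prdx5 was at 99.7 to 127 TPM in KO, at 99.3 and 93.3 TPM in WT and at 81.0 and 80.5 TPM in HET. On that summed scale the lowest KO library, at 99.7 TPM, was barely above the highest control, at 99.3 TPM. The share of all genes with KO above every control was not counted in TPM, and in CPM Prdx5 overlapped.

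Prdx4, the X-linked peroxiredoxin of the endoplasmic reticulum, was at 63.8 and 59.4 CPM in WT, at 60.8 and 49.6 CPM in HET and at 53.3 to 128 CPM in KO. The top value was that of KO replicate 6, and the next KO library was at 79.8 CPM. Its log2 fold change against WT plus HET was 0.43 (SE 0.21), and 0.23 without KO replicate 6. Prdx2, which is abundant in red blood cells as well as in lymphocytes, was at 183 and 159 CPM in WT, at 180 and 157 CPM in HET and at 149 to 245 CPM in KO, with a log2 fold change of 0.27 (SE 0.14). Summed erythroid markers were 46.1 and 58.3 CPM in WT, 36.6 and 40.2 CPM in HET and 58.2 to 97.2 CPM in KO. Of the 9 markers found, only Slc4a1, the red cell anion exchanger, was at 0 in every library. The hemoglobin gene Hbb-bt was at 35.4 and 33.9 CPM in WT, at 34.6 and 33.5 CPM in HET and at 31.8 to 80.3 CPM in KO. Hbb-bt and Prdx2 were both highest in KO replicate 1, while the hemoglobin gene Hbb-bs was highest in KO replicate 6, at 15.9 CPM. The part of red cell RNA in the Prdx2 value was not tested. Prdx1 was at 923 and 821 CPM in WT, at 1068 and 944 CPM in HET and at 839 to 1476 CPM in KO. Its log2 fold change was 0.38 (SE 0.20) against WT and 0.27 (SE 0.15) against WT plus HET. On the TPM scale these were 0.19 and 0.11. Prdx3 and Prdx6 had log2 fold changes above 0 on the count scale in both comparisons, but the mean level of Prdx6 was 119 TPM in KO and 124 TPM in WT.

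The thioredoxin system held the single gene below an unadjusted p of 0.05 in KO against WT. Txnip (chr3:96557957-96561883, plus strand), which binds and inhibits thioredoxin and responds to glucose, was at 151 and 249 CPM in WT and at 160 and 157 CPM in HET. The KO libraries were at 133, 141, 131, 161, 127 and 186 CPM, below both WT libraries in 4 of 6. The log2 fold change was -0.45 (SE 0.20, edgeR, unadjusted p = 0.04995, adjusted p = 0.999). It turned on the WT libraries, and was -0.05 without WT replicate 2 and -0.77 without WT replicate 1. Txn1 was at 355 and 275 CPM in WT, at 425 and 406 CPM in HET and at 275 to 699.9 CPM in KO, with a log2 fold change of 0.47 (SE 0.30) against WT, which was 0.29 without KO replicate 1 and 0.30 without WT replicate 2. Txn2, the mitochondrial thioredoxin, was at 175 and 174 CPM in WT, at 175 and 163 CPM in HET and at 174 to 260 CPM in KO. Its log2 fold change against WT plus HET was 0.22 (SE 0.12), and 0.13 without KO replicate 1. Glrx5, a mitochondrial glutaredoxin of iron-sulfur cluster assembly, had the same size there, 0.22 (SE 0.13), and ran from 62.4 to 91.8 CPM in KO and from 61.9 to 72.4 CPM in the 4 controls. The reductases that recharge the thioredoxins, Txnrd1 and Txnrd2, had log2 fold changes of 0.02 and -0.00 against WT.

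Glutathione synthesis starts with glutamate-cysteine ligase. Gclm, its modifier subunit, was at 21.8 and 17.4 CPM in WT, at 24.5 and 26.9 CPM in HET and at 22.3 to 31.5 CPM in KO. In CPM it was the single gene of the 40 whose KO libraries were all above both WT libraries, which was so for 2.68% of all genes, and 0 genes had all KO libraries below (3.91% of all genes). The log2 fold change of Gclm was 0.39 (SE 0.22), and 0.24 without WT replicate 2. As TPM the groups overlapped, at 27.8 and 19.7 TPM in WT and 19.7 to 29.9 TPM in KO, with a log2 fold change of 0.17. Its HET libraries were within the KO range. Gclc, the catalytic subunit, was at 97.5 and 96.4 CPM in WT, at 118 and 118 CPM in HET and at 74.3 to 115 CPM in KO, and its log2 fold change was -0.02 (SE 0.17) against WT and -0.17 (SE 0.13) against WT plus HET. Among the enzymes that use glutathione, Gpx1 was at 509 and 422 CPM in WT, at 571 and 564 CPM in HET and at 467 to 767 CPM in KO. Gstp1 was at 290 and 241 CPM in WT, at 301 and 307 CPM in HET and at 254 to 429 CPM in KO. Their log2 fold changes against WT were 0.34 (SE 0.19) and 0.33 (SE 0.21), and without WT replicate 2 they were 0.21 and 0.20. Gpx4, which removes lipid peroxides and restrains ferroptosis, was at 108 and 90.8 CPM in WT, at 91.6 and 81.8 CPM in HET and at 79.3 to 132 CPM in KO. Its log2 fold change was 0.14 (SE 0.19) against WT, and 0.24 (SE 0.14) against WT plus HET. Against WT it was -0.03 on the TPM scale, 0.02 without WT replicate 2 and 0.08 without KO replicate 1. Gpx4 has 1 named pseudogene.

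Of the enzymes that act directly on superoxide and hydrogen peroxide, Sod1, the cytosolic dismutase, was at 39.5 and 31.8 CPM in WT, at 43.4 and 39.98 CPM in HET and at 30.5 to 64.3 CPM in KO. Sod1 had a log2 fold change of 0.40 (SE 0.29) against WT, which was 0.25 without WT replicate 2 and 0.22 on the TPM scale. Sod2, in mitochondria, had 0.08 by the same measure. Cat, catalase of peroxisomes, was at 325 and 321 CPM in WT, at 445 and 384 CPM in HET and at 317 to 383 CPM in KO, with log2 fold changes of 0.16 (SE 0.12) against WT and -0.03 (SE 0.11) against WT plus HET. Sestrins, which link oxidative and nutrient stress to mTORC1, had log2 fold changes of -0.02 to -0.00 against WT. G6pdx, the entry enzyme of the pentose phosphate path and a main NADPH source, was at 108 and 97.3 CPM in WT and at 85.7 to 111 CPM in KO.

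**Figure D4:**
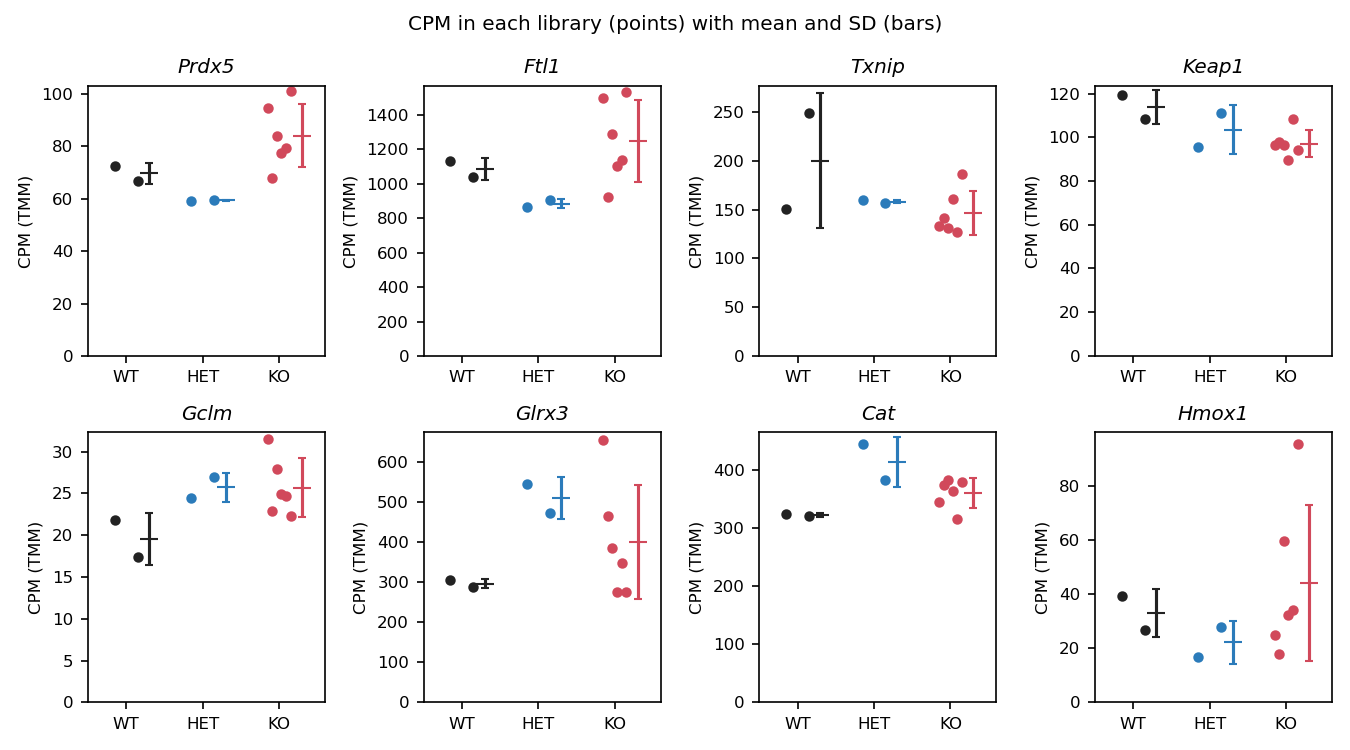
CPM of 8 genes in each library, by genotype, with points for libraries and bars for the mean and SD (2 WT, 2 HET and 6 KO libraries). Prdx5 and Ftl1 are higher in all 6 KO libraries than in both HET libraries, the Txnip mean in WT rests on a single high library at 249 CPM, and Glrx3 is at 289 and 305 CPM in WT, at 473 and 547 CPM in HET and at 275 to 654 CPM in KO.

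KO was then compared with HET, since both carry Vav-Cre. None of the 40 genes was called by edgeR or DESeq2, while edgeR called 0.00697% of 14354 genes and DESeq2 called 3.54% of 12931. At an unadjusted p under 0.05, 2 of 40 genes passed (5%, beside 10.2% of all genes). They were Prdx5, with a log2 fold change of 0.50 (SE 0.16, edgeR, unadjusted p = 0.0102, adjusted p = 0.370), and Ftl1, also with 0.50 (SE 0.18, unadjusted p = 0.0192, adjusted p = 0.425). All 6 KO libraries were above both HET libraries for these genes, which was so for 5.76% of all genes. In the libraries without Y-linked transcripts alone, the log2 fold changes were 0.57 for both genes. Gclc and Cat lay below HET in all 6 KO libraries, which was so for 8.12% of all genes, with log2 fold changes of -0.31 (SE 0.15) and -0.20 (SE 0.12). Both WT libraries of Gclc, at 97.5 and 96.4 CPM, were within the KO range. The set's median was 0.11 beside 0.07 for all genes, with 29 of 40 genes above 0 (72.5%, beside 56.3%).

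In HET against WT, with 2 libraries on each side and different Y-linked status, edgeR and DESeq2 called none of the 40 genes, while edgeR called 0.00697% of 14354 genes and DESeq2 called 0.928% of 13477. The genes with an unadjusted p under 0.05 were 2 (5%, beside 6.42% of all genes). Cat had a log2 fold change of 0.36 (SE 0.14, edgeR, unadjusted p = 0.0271, adjusted p = 0.738). Glrx3, a glutaredoxin that binds iron-sulfur clusters, was at 305 and 289 CPM in WT and at 547 and 473 CPM in HET, a log2 fold change of 0.78 (SE 0.35, unadjusted p = 0.0446, adjusted p = 0.767). When the fit used the 4 WT and HET libraries alone, Glrx3 was called (adjusted p = 0.0319), together with 3.96% of 13220 genes. KO libraries of Glrx3 ran from 275 to 654 CPM, and took in both levels. In HET, 12 of 40 genes were above both WT libraries and 5 were below (30% and 12.5%, beside 23.5% and 24.5% of all genes). In all, 18 of 40 genes lay above 0 (45%, beside 48.7% of all genes), and the set's median was -0.03, beside -0.01 for all genes.

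KO libraries were also compared with each other. The SD of log2 values over the 6 KO libraries had a median of 0.28 for the 40 genes, 0.33 for all genes and 0.25 for the 6372 genes above the set's lower quartile of level. KO replicate 1 held the highest KO value for 17 of 40 genes (42.5%, beside 22.2% of all genes), among them Fth1, Prdx1, Gpx1, Txn1 and Gstp1, and it was the highest or lowest for 47.5% of the set and 46.3% of all genes. KO replicate 2 held the lowest for 13 genes (32.5%, beside 14.2% of all genes), and was the highest or lowest for 32.5% of the set and 33.8% of all genes. Ties were given to the lowest replicate number, in the set and in all genes alike. Nqo1 and Me1 were among the 13, and both were at 0 in other KO libraries too.

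The 9 genes with the response element letters were set beside the others. In KO against WT, 6 of 9 had a log2 fold change above 0, with a median of 0.07, beside 19 of 27 and 0.18 for the genes without the letters. In KO against WT plus HET, 4 of 8 tested genes lay above 0, with a median of 0.00, beside 21 of 26 and 0.21. Without Me1 and Srxn1, which were detected in too few counts for a fold, 5 of 7 genes with the letters lay above 0 in the first comparison and 4 of 7 in the second, with medians of 0.07 and 0.05.

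The pathway's wider circle was read from 7 lists with 94 genes, of which 93 were found, and edgeR called 0 of them in any of the 4 comparisons. Among NRF2 partners and regulators, the smallest p in KO against WT plus HET was that of Nfe2l1, a relative of NRF2, with a log2 fold change of -0.41 (SE 0.20). Among other NRF2 targets it was Abcc1, an exporter of glutathione conjugates, with -0.48 (SE 0.18). Of the NADPH oxidase that makes superoxide, Cyba, the membrane subunit, had 0.33 (SE 0.14). Of the genes for selenoproteins, which include the glutathione peroxidases and thioredoxin reductases, Sep15 had 0.34 (SE 0.13). H6pd, an NADPH source in the endoplasmic reticulum, had -1.23 (SE 0.65), Acsl4, which loads membranes with oxidizable lipids, -0.49 (SE 0.19), and Nudt1, which clears oxidized nucleotides, 0.49 (SE 0.19). Each of these 7 genes had an adjusted p of 0.744 in edgeR, and for each the KO and control libraries overlapped.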

How the data were processed

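Germinal center B cell RNA was extracted with Macherey-Nagel kits, and cDNA from a SMART-Seq v4 kit was read from both ends on an Illumina HiSeq. The authors then ran Salmon (0.9.1 in the submitters' processing notes, which also name DESeq2 2.11.40.6) on Gencode vM17 transcripts. The authors deposited estimated counts per transcript, unnormalized, and TPM values, which correct for transcript length and sum to the same total in each library. Of the transcript counts, 46.1% were not whole (tolerance 0.001).

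Counts and TPM were summed by gene over 64019 transcripts and counts were rounded. Positions came from Gencode vM21 (GRCm38). The 4 comparisons used edgeR 4.0.16 (R 4.3.3) quasi-likelihood tests with TMM factors, filterByExpr and Benjamini-Hochberg adjustment over all genes tested, at 0.1. KO against WT and KO against WT plus HET were fitted on their own libraries, and the other comparisons on all 10. Fold changes are the first group over the second. DESeq2 1.42.0, limma 3.58.1 on log2(TPM + 1), filters, the replicate number as a block and leaving out each library were alternatives. The fits were tested on simulated data.

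The 40 genes, the lists and the tests were chosen with earlier results of these data known. The text names, with their values, members that were called (none), the 8 with the smallest p in each of KO against WT and KO against WT plus HET, 3 in each other comparison, 10 anchor genes, the members with a library apart from its group, and the highest and lowest by TPM. Libraries were counted as separate mice, as the study counts them. Replicate numbers were not used to pair the samples in the main fits.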

Additional observations from a re-analysis of the deposited data

Results flagged for a closer look

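In 9 of 80 groups of libraries of the 40 genes (the 6 KO libraries, or the 4 WT and HET libraries together), the highest or lowest library stood apart from the others by Dixon's test at the 95% level. Chance alone gives about 4 in 80. In 2 of the 9, Nqo1 in KO and Me1 in controls, a single library was above 0, which sets the flag by construction, and 7 remain without them. KO replicate 6 was the library in 3 of them: it was highest for Gss, glutathione synthetase, at 33.7 CPM, and for Prdx4 at 128 CPM, and lowest for Txnrd2 at 28.2 CPM. KO replicate 5 was highest for Txnrd1 at 130 CPM and for G6pdx at 111 CPM. KO replicate 1 was highest for Nqo1 at 1.20 CPM. Among controls, WT replicate 2 was highest for Txnip at 249 CPM, HET replicate 2 was highest for Me1 at 0.832 CPM, and HET replicate 2 was lowest for Txn2 at 163 CPM. Gss overlaps Acss2 and G6pdx overlaps Ikbkg on the other strand.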

How the results depend on the processing

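No member was called in any comparison under any alternative, apart from Glrx3 in HET against WT when the fit used the 4 WT and HET libraries alone (1 member called, adjusted p = 0.0319). The set's median log2 fold change moved on the TPM scale: to -0.0090 and -0.011 in KO against WT (pseudocount 1 and 0.1), to 0.047 and 0.048 in KO against WT plus HET, and to -0.019 in KO against HET (pseudocount 1). Relative to all genes it ranged over the alternatives from 0.10 to 0.22, from 0.08 to 0.23 and from 0.00 to 0.13 in these comparisons. With 1 library left out, the medians were 0.10 to 0.25, 0.10 to 0.24, 0.08 to 0.16 and, in HET against WT, -0.04 to 0.04, where a lone WT or HET library is assumed to vary like the other groups. Zbtb38 lost its call in KO against WT under 11 of 19 alternatives, among them leaving out WT replicate 1 or 2 or KO replicate 1, 3, 4 or 5, and in KO against WT plus HET under 4 of 21. Signs of single genes turned as follows, and the cause was not tested. On the TPM scale Gpx4 went to -0.0281 and -0.0282 in KO against WT, and Nfe2l2 to -0.079 and -0.081 there and to -0.082 and -0.085 in KO against WT plus HET. With 1 library left out, Gclc ranged from -0.083 to 0.041 in KO against WT (above 0 without KO replicate 6), and in KO against WT plus HET Nfe2l2 ranged from -0.00037 to 0.078 (below 0 without KO replicate 1) and Cat from -0.091 to 0.073 (above 0 without HET replicate 1 or KO replicate 5). Hmox1 went to -0.36 with only the libraries that hold Y-linked transcripts (chosen after seeing the data). Same-numbered libraries had r of -0.01 to 0.13 between their deviations from the genotype means. In a group of 2 libraries these deviations mirror each other, and differently numbered libraries were not compared. The r values therefore cannot settle whether numbers pair the samples. With the replicate number as a block, Hmox1 went to -0.62 against WT and -0.38 against WT plus HET. All-gene calls then moved from 1 to 6, 0, 4 and 66 in the 4 comparisons. DESeq2 called 5, 18, 458 and 125 of all genes, and 0 of the set. Genes of the set at an unadjusted p under 0.05 ranged from 0 to 6 over the comparisons and alternatives. Of all genes, 2.19% to 10.2% passed in the main edgeR fits. In HET against WT on the 4 WT and HET libraries alone, 2234 of 13220 genes passed. The range of 0 to 6 is thus no result about the set by itself. On the TPM scale (pseudocount 1), log2 fold changes against WT plus HET were 0.20 for Ftl1, 0.24 for Prdx4, 0.12 for Prdx2, 0.09 for Txn2, 0.07 for Glrx5, 0.37 for Hmox1 and -0.30 for Gclc, and those against WT were 0.28 for Txn1, 0.19 for Gpx1, 0.18 for Gstp1, 0.02 for Cat and 0.08 for Hmox1. Depth does not limit most of the set, but Nqo1, Me1, Srxn1 and Slc7a11 had too few counts for a fold.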

Other observations

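Tfrc, the transferrin receptor that brings in iron, was the gene of the ferroptosis list with the smallest p in KO against HET, at 50.4 to 92.8 CPM in KO and 114 to 117 CPM in HET (log2 fold change -0.69, SE 0.22, edgeR, adjusted p = 0.370). It was chosen after its values were seen.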
